A study of Rattus norvegicus with 59 samples.

Results

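The genes described here are Npy, Npy1r, Sst, Cck and Vip, which encode neuropeptide Y, its Y1 receptor and the interneuron peptides somatostatin, cholecystokinin and vasoactive intestinal peptide. They were taken as every probe set whose single gene symbol in the array annotation is 1 of these 5, which gave 6 probe sets of 8740, 2 of them for Sst, and 5 of the 4736 genes with such a probe set. All 6 were bright enough to be tested. They were measured in nucleus accumbens, amygdala, hippocampus, striatum and frontal cortex, 5 regions of the brain, in adult males of an inbred alcohol-preferring line (iP, strain iP5C, animals 1 to 6) and an inbred alcohol-non-preferring line (iNP, strain iNP1, animals 7 to 12). Each array held the RNA of 1 region of 1 rat, 59 arrays in all, because no cortex array of iP 6 was analysed here. Each preference is represented by 1 inbred line, and all rats had chow and water freely and were handled daily before decapitation. Nothing in the labels places the rats of a line in separate litters or dissection days, so the p-values measure the spread between these rats only.

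Neuropeptide Y is made by a class of GABA-releasing interneurons that in forebrain often also make somatostatin, and its Y1 receptor is a G protein-coupled receptor that dampens excitability in many of the neurons that carry it. Cholecystokinin is made both by a class of interneurons and by many glutamatergic projection neurons of the cortex, and vasoactive intestinal peptide is made by interneurons that mostly inhibit other interneurons. All of these peptides are cut from larger precursors in dense core vesicles, and neuropeptide Y has been studied for its part in anxiety and alcohol drinking. The comparison asks whether transcripts of these systems differ between the brains of alcohol-preferring and non-preferring rats.

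Promoter sequence helps to place 3 of the genes, and the stretches below show the motif that a search of the 250 bases before and 50 after each gene's RefSeq start found. The sequences are those of the RefSeq reference genome GRCr8, not of the iP or iNP rats, all on the plus strand, and 4 of the 5 genes (all but Cck) had an entry. Capitals mark a GC box (GGGCGG) in Npy, the full cyclic AMP response element (TGACGTCA) in Sst and its core (TGACGT) in Vip.
Npy, chr4:80212011-80212110: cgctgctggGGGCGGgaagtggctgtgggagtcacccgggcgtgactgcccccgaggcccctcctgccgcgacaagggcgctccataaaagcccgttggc
Sst, chr11:90461538-90461565: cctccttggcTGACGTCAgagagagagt
Vip, chr1:44470373-44470400: atcaccactgTGACGTctttcgaggagc
The GC box of Npy begins at position -91 from the RefSeq start, the core element of Vip at -97 and the full element of Sst at 3. On either strand, the full element was found in 1.83% of 33469 promoter windows of this length, its core, which lies within the full element, in 7.94%, and the GC box in 33.1%. The other motif searched, the TATA box (TATAAA, in 14.2% of windows), was found in Vip only among the 4. The Npy1r window held none of these letters.

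Values are the deposited signals, a linear intensity that has the same trimmed mean on each array, and differences are given on the log2 scale after a floor of 16. A signal depends on the probes, so levels are compared within a probe set and never between genes. The brighter Sst probe set is called Sst-a; the other, called Sst-b, has the manufacturer's suffix for probes that can match more than 1 transcript. A difference is called where limma's moderated test, adjusted by Benjamini-Hochberg over 5244 tested probe sets, gives p under 0.05.

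The arrays had median signals of 250.9 to 390.7. Markers matched the labelled regions on most arrays. The summed signal of 7 striatal and accumbal markers was 16922.9 to 38735.4 on striatum and accumbens arrays and at most 4340.4 on cortex and hippocampus arrays, and that of 4 hippocampal markers was at least 2267.6 in hippocampus and at most 2090.9 elsewhere. On 6 arrays, however, the profile over the tested probe sets was nearest another region: cortex of iP 5 (amygdala), striatum of iP 5 (cortex), amygdala of iP 1 (cortex), amygdala of iNP 7 and iNP 8 (accumbens) and accumbens of iP 4 (amygdala). The margins were unequal. Striatum of iP 5 was a near tie, with a median r of 0.235 to its own region and 0.239 to cortex. These values were -0.149 and 0.192 for amygdala of iP 1. For cortex of iP 5 they were -0.133 and 0.064, so it was close to no region. Cortex of iP 5 also had a Gapdh 3′ to 5′ log2 ratio of 6.14, against at most 0.44 on the other arrays. In amygdala of iP 1 the sum of 4 amygdala markers was 776.3, against 2076.0 to 3316.5 on the other 11 amygdala arrays. All 6 arrays were kept. Some results that rest on them are also given without some or all of them, and the other results include them.

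Npy was lower in iP rats, by a modest amount and with the same sign in each region. The neuropeptide Y transcript averaged 11.24 ± 0.08 in iP rats and 11.48 ± 0.07 in iNP rats (log2 signal, mean over the regions of each rat with the region levels removed; SD, n = 6 each). The 6 iP rats had means of 11.10, 11.22, 11.33, 11.23, 11.29 and 11.24, against 11.41, 11.51, 11.54, 11.45, 11.38 and 11.56 in the 6 iNP rats. Every iP rat lay below every iNP rat, which was so for 1.64% of all probe sets tested. The difference was -0.24 ± 0.05 (log2, SE; 95% interval -0.35 to -0.13; limma adjusted p = 0.0146), a signal 0.846-fold that of iNP. It was -0.26 without the arrays nearest another region (limma adjusted p = 0.0135). Npy was the 1 called probe set of the 6, where 2.65% of all probe sets were called and 1.45% were called lower in iP. Npy was read by 1 probe set, and whether the lines differ in sequence under its probes was not tested. Since these are bulk samples, fewer Npy neurons and less Npy RNA per neuron could not be told apart either.

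**Figure D1:**
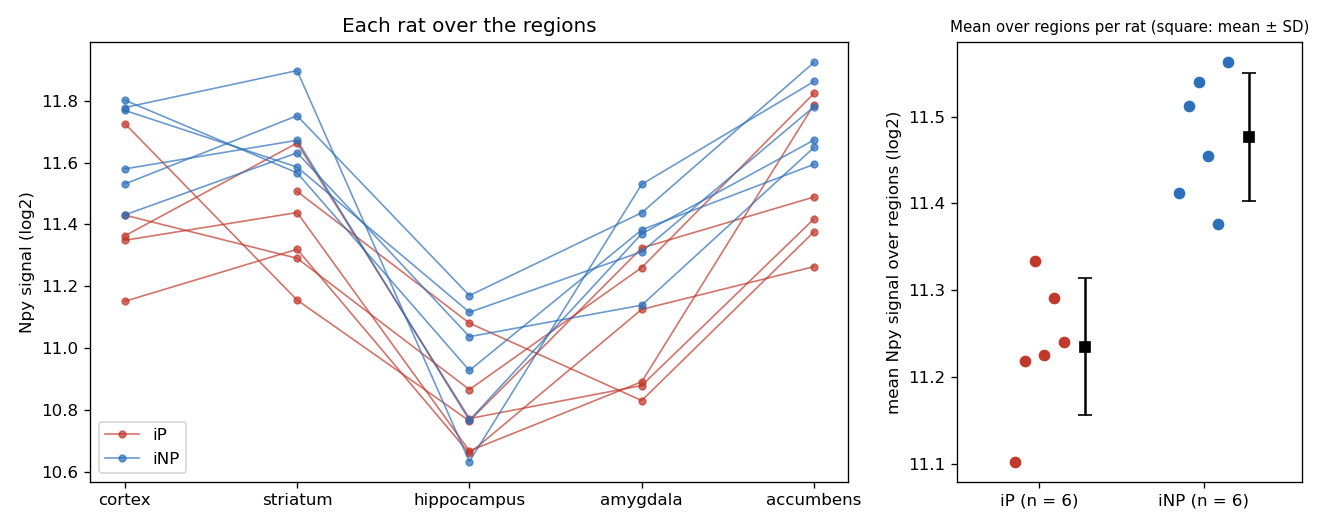
Left, log2 Npy signal of each rat (1 line per rat, red iP, blue iNP) across the 5 regions; cortex of iP 6 is missing. Right, each rat's mean over regions with region levels removed, and the mean ± SD of each line as a square; the highest iP rat, at 11.33, lies below the lowest iNP rat, at 11.38.

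Region by region, Npy signals of the lines overlapped although the iP mean was always the lower. In cortex Npy was 2274.8, 2634.8, 2759.7, 2608.4 and 3389.0 in iP rats, and ran from 2761.1 over a median of 3275.8 to 3571.6 in iNP rats. In striatum the lowest, median and highest signals were 2281.1, 2666.1 and 3244.1 in iP, against 3034.3, 3218.8 and 3816.2 in iNP. The iP rats thus lay mostly under the iNP range in both, with iP 5 (the array with the high Gapdh ratio) as the high one in cortex and iP 2 in striatum. In hippocampus the values were 1617.5, 1744.4 and 2166.1 in iP, against 1588.1, 2024.8 and 2304.3 in iNP, so the lowest single rat was an iNP rat. In amygdala they were 1821.0, 2066.7 and 2563.9 in iP, against 2255.2, 2658.5 and 2957.4 in iNP. In accumbens they were 2459.0, 2805.4 and 3626.8 in iP, against 3092.8, 3392.7 and 3887.1 in iNP, with iP 3 and iP 4 well inside the iNP range.

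The difference of Npy (iP minus iNP, log2 ± SE) was widest in amygdala, at -0.31 ± 0.11, and in striatum, at -0.29 ± 0.09. It was -0.24 ± 0.12 in cortex, -0.22 ± 0.11 in accumbens and -0.14 ± 0.11 in hippocampus. None was called in a region taken alone, with limma adjusted p from 0.315 in striatum to 0.873 in hippocampus. Being lower in iP in all 5 regions was shared by 9.32% of all probe sets. The difference did not vary detectably between regions (limma interaction F test, adjusted p = 0.978; 0.0% of probe sets were called in that test, and 242 of 5244 had an unadjusted p under 0.05).

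The lower Npy signal was compared with the other peptides inside the same rats. The p-values are from exact two-sided permutation tests over 924 splits of the 12 rats, with a smallest possible p of 0.00216 before adjustment. They were adjusted by Benjamini-Hochberg over 6 tests, which include that of Npy alone, already known to separate the lines fully. Counting Npy alone lowers the adjusted p of the differences that passed. The line difference of Npy minus Sst-a was -0.19 (adjusted exact permutation p = 0.00433), that of Npy minus Sst-b -0.17 (0.00649 by the same test) and that of Npy minus Cck -0.38 (0.00433 by the same test). Npy minus Npy1r differed by -0.22 (adjusted exact permutation p = 0.0364). Npy minus Vip differed by -0.11, which did not pass (adjusted exact permutation p = 0.333), so a difference between the lines in Npy beyond that in Vip was not shown. These tests were added after Npy had been seen to separate the lines, so they are no further support for the Npy difference itself. Because Npy was chosen for that separation, low p-values were likely against any probe set with little line difference. The differences are therefore given as descriptions.

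Markers of cell types were set beside the Npy difference. Of 6 other GABA and interneuron markers (Gad1, Gad2, Slc32a1, Pvalb, Calb2 and Reln), 0 were called between the lines, with a median difference of -0.11. Of all probe sets, 2.65% were called in that comparison. Their summed signal overlapped between the lines in each region, for example 11900.0 to 13919.1 in iP and 11561.6 to 14232.9 in iNP hippocampus. Gad1, Gad2 and Slc32a1 mark GABA neurons as a whole and were higher in accumbens than elsewhere (0.83, 1.23 and 0.83). The sum is therefore no count of interneurons. Among markers of other cells, the microglial P2ry12 (-0.77), the endothelial Pecam1 (-0.47) and the haemoglobin gene Hbb-b1 (-0.38) were called lower in iP, 1 of 3 tested microglial, 1 of 2 endothelial and 1 of 2 blood markers. The microglial Aif1 (0.08) and Cx3cr1 (-0.09), the endothelial Flt1 (-0.16) and the blood marker Alas2 (-0.38) were not called. Neither were any of 5 oligodendrocyte and 5 astrocyte markers. The part of the called markers in the Npy difference was not tested.

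Npy1r, the Y1 receptor through which neuropeptide Y acts on many forebrain neurons, did not differ detectably between the lines. Its mean over regions was 8.99 ± 0.14 in iP rats and 9.01 ± 0.10 in iNP rats (log2; SD, n = 6 each). The difference was -0.02 with a 95% interval from -0.18 to 0.13 (limma adjusted p = 0.942). Single arrays scattered widely: in amygdala Npy1r ran from 256.1 over 404.2 to 614.2 in iP and from 328.8 over 427.8 to 509.7 in iNP. The highest of these was amygdala of iP 1, the array nearest cortex, and without that array the amygdala difference was -0.19 in place of -0.07, uncalled in both cases.

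Somatostatin, which many Npy neurons also make, was read by both Sst probe sets, and neither was called between the lines. Sst-a averaged 13.55 ± 0.08 in iP rats and 13.60 ± 0.06 in iNP rats, a difference of -0.05 (95% interval -0.15 to 0.05; limma adjusted p = 0.75). Sst-b averaged 12.08 ± 0.04 in iP rats and 12.16 ± 0.08 in iNP rats, a difference of -0.07 (-0.17 to 0.02; limma adjusted p = 0.556). The widest gap by region was in accumbens for Sst-a, with 7685.0, 10432.5 and 13679.9 (lowest, median, highest) in iP against 10794.7, 12680.8 and 13020.8 in iNP. Sst-b gave its widest gap in amygdala, with 3706.7, 4486.1 and 4921.2 in iP against 4367.2, 5068.2 and 5768.3 in iNP. These differences were -0.19 ± 0.12 and -0.20 ± 0.10, and neither was called. The signs of the Sst probe sets matched each other in each region, negative in striatum, amygdala and accumbens and positive in cortex and hippocampus.

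Cck was the 1 probe set of the 6 with a positive difference over all regions. It averaged 13.0 ± 0.10 in iP rats and 12.86 ± 0.14 in iNP rats, a difference of 0.14 (95% interval -0.004 to 0.28; limma adjusted p = 0.431), which was not called. Most of the gap lay in amygdala, where Cck had 13339.4, 7526.2, 5851.6, 7372.0, 8322.6 and 6679.1 in iP 1 to iP 6, against 4044.9, 3379.6, 6266.4, 6960.7, 6793.3 and 6209.2 in iNP 7 to iNP 12. The extremes were the 3 amygdala arrays whose profile was nearest another region, iP 1 at the top and iNP 7 and iNP 8 at the bottom. The amygdala difference was 0.54 ± 0.21 (limma adjusted p = 0.471). It was 0.39 without amygdala of iP 1 and 0.12 without all arrays nearest another region.

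The summed signal of 3 markers of cortical projection neurons (Nrgn, Camk2a and the dim Slc17a7, nearly all of it Nrgn) had its extremes on the same amygdala arrays. It was 28586.6 in iP 1, against 16695.7 in iNP 7 and 16406.5 in iNP 8, and 19758.8 to 25823.8 on the other amygdala arrays. Over all 59 arrays, which come from 12 rats and share region and scaling, log2 Cck correlated with the log2 of this sum at r = 0.585. The same r was 0.649 for Vip, 0.27 for Sst-a and -0.23 for Npy. The part of tissue composition in the Cck difference was not tested beyond leaving out these arrays.

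**Figure D2:**
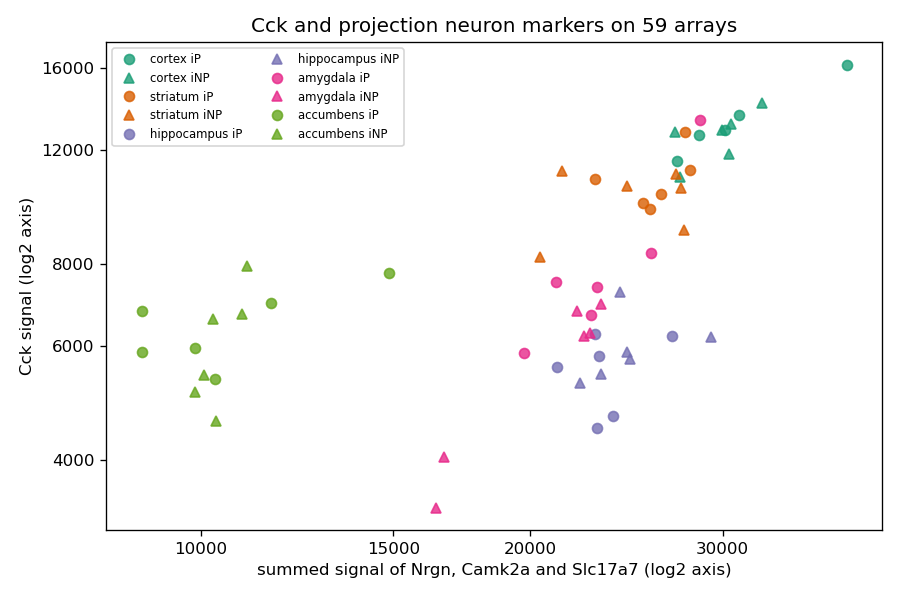
Cck signal against the summed signal of 3 projection neuron markers, 1 point per array (59 arrays, log2 axes; colour gives the region, circles iP, triangles iNP). Amygdala of iP 1 lies among the cortex arrays, and the amygdala arrays of iNP 7 and iNP 8 have the lowest Cck.

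Vip, the marker of interneurons that inhibit other interneurons, did not differ detectably between the lines either. It averaged 8.27 ± 0.11 in iP rats and 8.40 ± 0.19 in iNP rats, a difference of -0.13 (95% interval -0.33 to 0.07; limma adjusted p = 0.641). Hippocampus gave the widest gap, with 211.5, 224.6 and 259.7 (lowest, median, highest) in iP against 185.9, 311.1 and 369.9 in iNP, a difference of -0.34 ± 0.19 that was not called. The iP rats lay close together there, and the iNP rats spread on both sides of them. In cortex Vip had 538.2, 563.3, 467.8, 535.1 and 697.6 in iP, against 504.5, 640.5 and 807.3 in iNP, a difference of -0.22.

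Over the 5 genes, the lines overlapped in all 30 pairs of a probe set and a region. The share of all probe sets that overlap in a region was not counted, so this does not set the 6 apart. In each region 0 of the 6 probe sets were called by limma, where the share of all probe sets called was 0.839% in striatum, 0.725% in amygdala, 0.667% in hippocampus, 0.572% in accumbens and 0.229% in cortex. At an unadjusted p under 0.05 there was 1 of the 6 in striatum (Npy) and there were 2 in amygdala (Npy and Cck), with none in cortex, hippocampus or accumbens, where 276 to 459 of all 5244 probe sets per region passed that level. Over all regions 5 of the 6 were lower in iP with a median difference of -0.06, beside 54.0% and -0.01 for all probe sets tested. A set of 6 probe sets from 5 genes is small, so these counts describe it and no more.

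**Figure D3:**
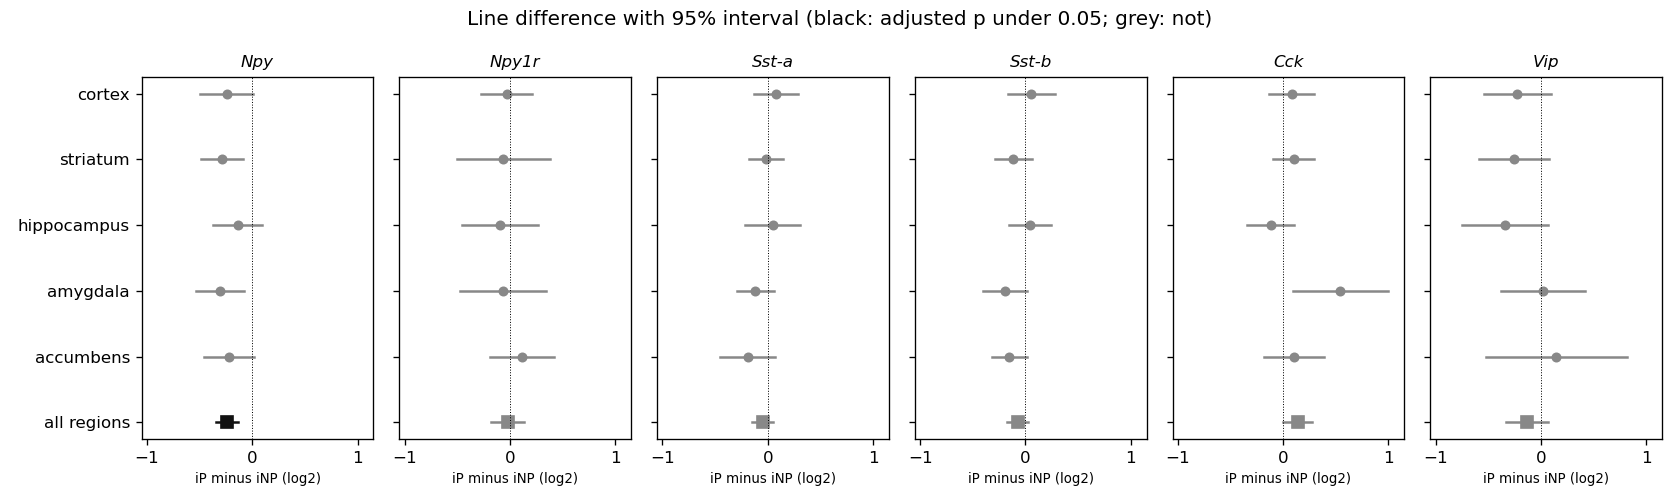
Line difference (iP minus iNP, log2) of the 6 probe sets in each region and over all regions, with 95% intervals; black marks a limma adjusted p under 0.05 and grey the rest. Npy over all regions, at -0.24, is the 1 black point.

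**Figure D4:**
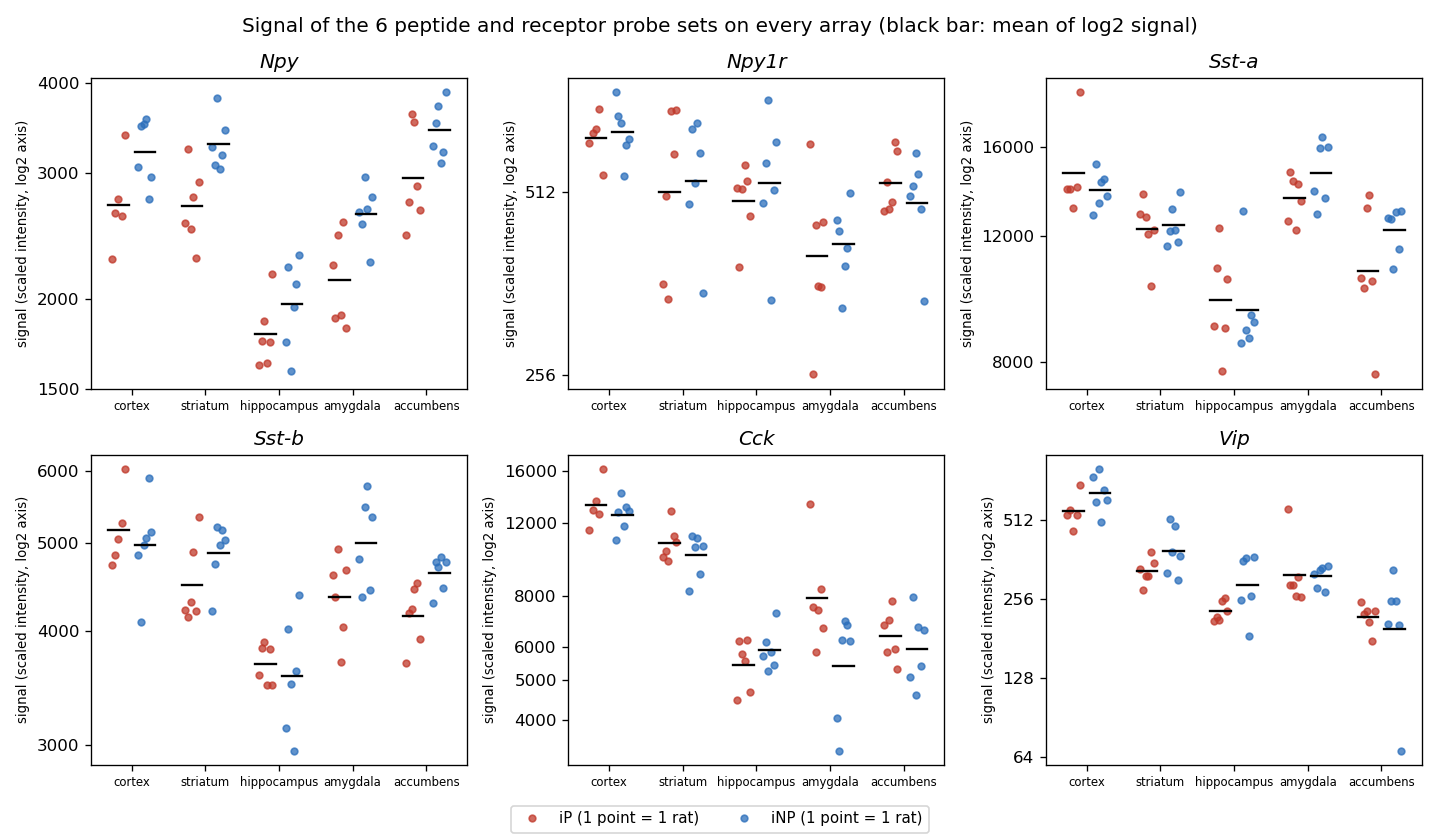
Deposited signal (scaled intensity, log2 axis) of the 6 probe sets on every array, by region, with iP in red at the left and iNP in blue at the right of each pair and the mean of the log2 values as a black bar. Levels differ more between regions than between lines, and the lines overlap in each pair.

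Region separated these transcripts much more than line did. All 6 probe sets differed between the regions (limma F test with the rat as a block; adjusted p from 1.45e-13 for Cck to 0.000803 for Npy1r), where 45.4% of all probe sets did. Of the total variance of log2 Npy over the arrays, 66.3% lay between regions, 11.8% between lines and 4.00% between rats of a line. For Cck the shares were 74.5% for region and 1.79% for line, and for Vip 68.5% and 1.08%. Region held 59.7% for Sst-a, 55.9% for Sst-b and 34.0% for Npy1r, beside a median of 15.5% over all probe sets tested, while the median share of line was 1.30%.

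Npy was highest in accumbens, striatum and cortex and lowest in hippocampus. Its signal was 3216 ± 459 in accumbens, 3007 ± 432 in striatum, 3002 ± 437 in cortex, 2392 ± 374 in amygdala and 1889 ± 253 in hippocampus (SD over both lines, n = 12, and 11 in cortex). Steps between neighbours in this order are given as the higher region minus the next. The first 3 regions were not told apart, with differences of 0.10 for accumbens minus striatum (limma adjusted p = 0.457) and 0.01 for striatum minus cortex (adjusted p = 0.95). Cortex was higher than amygdala by 0.32 (adjusted p = 0.000887), and amygdala higher than hippocampus by 0.34 (adjusted p = 0.000296). Of all probe sets, 14.1% were called between striatum and accumbens, 8.47% between cortex and striatum, 22.6% between cortex and amygdala and 23.2% between hippocampus and amygdala.

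The receptor had another order. Npy1r was 638 ± 61 in cortex, 538 ± 133 in striatum, 521 ± 101 in hippocampus, 515 ± 74 in accumbens and 419 ± 93 in amygdala, and no step between neighbours in this order was called (18.2% of probe sets were called between striatum and hippocampus, 23.6% between hippocampus and accumbens and 20.5% between amygdala and accumbens). Further apart, amygdala was lower than cortex by 0.65 (limma adjusted p = 6.66e-05), than striatum by 0.35 (adjusted p = 0.028) and than hippocampus by 0.32 (adjusted p = 0.0473). Cortex was higher than accumbens by 0.34 (adjusted p = 0.043). The step from accumbens to amygdala was 0.31 (limma adjusted p = 0.0572). It was called in 5 of 20 alternatives (over all 20, adjusted p from 0.0073 with array weights to 0.169), among them without the arrays nearest another region (0.43, adjusted p = 0.0105), without iP 1 (0.38, adjusted p = 0.0204) and without iNP 12 (0.40, adjusted p = 0.0126).

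Sst followed a pattern with a low hippocampus in both probe sets. Sst-a was 14351 ± 1686 in cortex, 14187 ± 1380 in amygdala, 12384 ± 981 in striatum, 11595 ± 1751 in accumbens and 9726 ± 1594 in hippocampus. Sst-b was 5085 ± 531 in cortex, 4705 ± 454 in striatum, 4709 ± 596 in amygdala, 4405 ± 353 in accumbens and 3646 ± 384 in hippocampus. The step from accumbens to hippocampus was called in both, at 0.25 in Sst-a (limma adjusted p = 0.00909) and 0.28 in Sst-b (adjusted p = 0.00049), and the other steps were not. In Sst-a that step missed the threshold without iP 4 (0.20, adjusted p = 0.0504). The step from amygdala to striatum, at 0.19 (adjusted p = 0.0514), was called in 10 of 21 alternatives (over all 21, adjusted p from 0.007 with array weights to 0.119). These included those without the arrays nearest another region (adjusted p = 0.0142) and without iP 1, iP 4, iP 6 or iNP 8 (adjusted p = 0.0432 to 0.0439). Further apart, cortex was higher than accumbens by 0.30 in Sst-a (limma adjusted p = 0.00219) and by 0.20 in Sst-b (adjusted p = 0.0142).

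Cck fell into a high and a low set of regions. It was 12946 ± 1420 in cortex and 10428 ± 1158 in striatum, and 6895 ± 2462 in amygdala, 6252 ± 1052 in accumbens and 5727 ± 743 in hippocampus. The step from striatum to amygdala was called, at 0.67 (limma adjusted p = 4.13e-06; 24.3% of probe sets were called in that pair), and those within the low set were not. The step from cortex to striatum, at 0.30, was not called (adjusted p = 0.0879), and was called in 5 of 21 alternatives (over all 21, adjusted p from 0.00492 to 0.192), among them without the arrays nearest another region (0.28, adjusted p = 0.00492), without iP 1 (0.32, adjusted p = 0.0317) and without iNP 8 (0.31, adjusted p = 0.0426). The striatal arrays carried projection neuron markers too, with a summed signal of 20440.2 to 28005.5. This sum was 8825.6 to 14865.6 in accumbens, 16406.5 to 28586.6 in amygdala and 27115.9 to 38970.1 in cortex. It was 21190.5 to 29292.6 in hippocampus, the region with the lowest Cck mean. The part of these markers in the striatal Cck signal was not tested.

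Vip stood out in cortex. It was 613 ± 106 there, against 365 ± 74 in striatum, 323 ± 82 in amygdala, 265 ± 65 in hippocampus and 220 ± 61 in accumbens. The step from cortex to striatum was 0.75 (limma adjusted p = 0.00037), and the later steps were not called. Further apart, striatum was higher than accumbens by 0.79 (adjusted p = 6.36e-05) and than hippocampus by 0.47 (adjusted p = 0.0175). Amygdala was higher than accumbens by 0.60 (adjusted p = 0.00211). Accumbens minus the mean of the other regions was -0.81 (adjusted p = 3.65e-07), where 20.9% of all probe sets were called. The step from amygdala to hippocampus was called without iNP 12 (0.32, adjusted p = 0.0356), whose accumbens array had the lowest Vip signal of all 59, 67.6.

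Set against the mean of the other 4 regions, hippocampus was lower in 5 of the 6 probe sets, where 23.3% of all probe sets were called in that comparison in either direction. The differences were -0.61 for Npy, -0.43 for Sst-a, -0.37 for Sst-b, -0.59 for Cck and -0.42 for Vip (limma adjusted p from 3.09e-12 to 0.00572). Npy1r, at -0.01, was the exception. Cortex was higher in all 6, where 17.0% of all probe sets were called, by 1.11 for Vip, 0.87 for Cck, 0.40 for Npy1r, 0.27 for Sst-a, 0.23 for Sst-b and 0.21 for Npy. Of 24 steps between neighbouring regions over the 6 probe sets, 6 were called.

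The transcripts varied together in part. Across the 59 arrays the r of log2 signals was 0.703 between Cck and Vip, 0.628 between Npy and Sst-b, 0.508 between Npy and Sst-a and 0.746 between the Sst probe sets. After the mean of each region and line was removed, Npy and Sst-a kept an r of 0.561 and Npy1r and Vip one of 0.523, while Cck and Vip dropped to 0.252. Npy and Vip had an r of 0.173 over all arrays and -0.0354 within groups. These are descriptions over arrays that share rats, regions and scaling.

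The genes with the pattern most like each of the 5 were found by the r of log2 signals over the 59 arrays, with the brightest probe set per gene. For Npy they were Dlg1, which encodes a synaptic scaffold protein (0.757), Neu2 (0.721), Gucy1b1, a subunit of the nitric oxide receptor guanylate cyclase (0.716), Agrn (0.715) and Pmepa1 (0.691). For Npy1r they were the presynaptic fusion gene Snap25 (0.641), Csnk1a1 (0.631), Pou6f1 (0.609), the AMPA receptor gene Gria3 (0.597) and Vamp1 (0.583). For Sst they were Ctxn1 (0.789), Fabp3 (0.77), the GABA-A receptor gene Gabrb2 (0.742), Asic2 (0.706) and Rtn1 (0.694). Cck was most like Dact2 (0.861), the adrenergic receptor gene Adra1b (0.852), Ptgfrn (0.828), the calcium pump gene Atp2b2 (0.809) and Inpp5d (0.803). Vip was most like the calcium sensor gene Vsnl1 (0.846), Kcnv1 (0.794), Dact2 (0.788), Gfra2 (0.764) and Ppp2cb (0.752). Dact2 is thus named for both Cck and Vip. The 99th percentile of r over all other probe sets was 0.524 to 0.658 for the 5 genes. Since the genes named were picked for the highest r, their place above it was nearly fixed by that choice. After the mean of each region and line was removed, r with Npy was 0.317 for Dlg1, 0.141 for Neu2, 0.329 for Gucy1b1, 0.439 for Agrn and 0.169 for Pmepa1. For the genes named with the other members it was 0.32 to 0.69.

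The other genes of these peptide systems showed few line differences. Of the other neuropeptide Y family and receptor genes, Pyy, Ppy, Npy4r and Npy5r were on the array and all were too dim to be tested. The somatostatin receptor genes Sstr1 to Sstr4 were tested and 0 were called between the lines, with Sstr2 at 0.00 and Sstr4 at 0.08. Cckbr, the cholecystokinin receptor that prevails in brain, differed by -0.11 (limma adjusted p = 0.59), and neither Adcyap1, which encodes the related peptide PACAP (0.02), nor its receptor gene Adcyap1r1 (-0.18, adjusted p = 0.52) was called.

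Of 9 tested genes of peptide processing and dense core vesicles, 1 was called over all regions, where 2.65% of all probe sets were called. Scg5, which encodes 7B2, the chaperone of the prohormone convertase PC2, rose in iP by 0.21 ± 0.04 (limma adjusted p = 0.0146), and 8 did not pass, among them the convertase gene Pcsk2 (0.06) and the carboxypeptidase gene Cpe (0.00). Of 14 tested genes of GABA release and interneuron classes, 0 were called, which at that share sets neither list apart. Reln, which encodes the matrix protein reelin, came nearest at -0.24 (limma adjusted p = 0.116), followed by Calb1 at 0.17 (adjusted p = 0.153) and the parvalbumin gene Pvalb at 0.20 (adjusted p = 0.343). Gad1, which encodes a GABA-synthesising enzyme, differed by -0.09 (adjusted p = 0.665). Median differences were 0.07 in the processing list and -0.03 in the interneuron list, beside -0.01 for all probe sets.

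Differences between regions were called in more of the same genes, as in all probe sets, of which the region F test called 45.4%. It called 2 of 4 tested somatostatin receptor genes, Cckbr, 2 of 2 genes of the Vip family, 8 of 9 processing genes and 13 of 14 GABA and interneuron genes. Against the other regions, Cckbr was lower in hippocampus by 0.42 (limma difference -0.42, adjusted p = 0.000528), as Cck was. Sstr2 was lower in accumbens (-0.64), where 20.9% of all probe sets were called, and Adcyap1 was higher in cortex (0.42), as Vip was. Of the 14 GABA and interneuron genes, 10 were called higher and 2 lower in accumbens, and 0 higher and 8 lower in hippocampus. Penk and Tac1, higher in accumbens by 1.92 and 1.94, are also among the striatal and accumbal markers used above. The accumbens calls are therefore no measure of interneurons. Gad1 and the vesicular GABA transporter gene Slc32a1 were higher in accumbens (0.83 each) and lower in hippocampus (-0.45 and -0.42). Gad2 was higher in accumbens (1.23) and was not called in hippocampus (-0.29, adjusted p = 0.404), and Pvalb and Calb1 were lower in accumbens (-0.66 and -0.43). The secretory granule gene Vgf was lower in hippocampus (-0.68), but Scg2 and Chgb were higher there (0.52 and 0.32).

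Of the 5 nearest tested genes on each side of Npy in the gene order of its chromosome, 1 was called between the lines, where 2.65% of all probe sets were called. Pdia4, a protein disulfide isomerase of the endoplasmic reticulum, was higher in iP by 0.48 ± 0.06 (limma adjusted p = 0.000175), the opposite sign to Npy; it lies 90 genes away in the RefSeq gene table. Nearer genes, Aoc1 and Hnrnpa2b1, each 26 genes away, differed by 0.01 and 0.04 and were not called, and the widest uncalled value was that of Gstk1 (0.54, adjusted p = 0.603). Of 182 tested genes on that chromosome 8 were called; these counts were not tested against that share.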

How the data were processed

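The authors deposited 1 table with a linear intensity for each probe set of a 3′-biased Affymetrix rat array; per the labels' protocols, biotin-labelled RNA of each rat and region was hybridised separately. What software computed the signals is not given in the sources used. The mean of each array, trimmed by 2% at each end, was 1000.0, so no scaling was added. Signals were floored at 16 and log2 transformed; 59 control probe sets and the dimmest 40% by mean were left out, which left 5244 of 8740. Genes came from the array's annotation: 7006 probe sets had 1 symbol, 308 several and 1426 none. Of the 7006 probe sets, 6985 had a gene ID that matched the GRCr8 table. Titles gave line and region, and the genotype label gave the same line; the source name, which reads iNP on every array, was left aside.

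Tests used limma 3.58.1 in R 4.3.3 (empirical Bayes with an intensity trend, Benjamini-Hochberg adjustment, two-sided, calls at adjusted p under 0.05); tables were made with pandas 2.3.3 and numpy 2.4.6. Lines were compared in each region and on 1 mean per rat, after each region's level (the mean of the line means) was removed. Region and interaction tests had the rat as a fixed block, since equal animal numbers in the titles mark the same rat. The rule names all 6 probe sets, the called genes of the related lists (with further members as examples, chosen after their values were seen), the 5 tested genes on each side of Npy and the 5 most alike genes. The members and lists were chosen with earlier results of these data known. Alternatives were the filter, floor, quantile normalization, variance trend, array weights, a Gapdh 3′ to 5′ covariate, the replicate block and leaving out rats or arrays; those on arrays nearest another region and the permutation tests were chosen after the data were seen. On simulated data of 5244 probe sets, the test over all regions recovered 56% of 50 changes of 0.25, 90% of 0.5 and 100% of 1 and 2 (log2). It made 17 calls among unchanged probe sets. The simulated noise was independent between arrays, with no level shared by the arrays of a rat, and further probe sets were raised in iP cortex only. These shares therefore need not hold in the real data. Arrays have no read depth, and the number of rats limits the precision.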

Additional observations from a re-analysis of the deposited data

Results flagged for a closer look

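In 4 of 60 groups of a probe set, region and line, 1 array lay far from the others of its group, where chance alone gives about 1 in 20. Sst-a in iP cortex was 19052.7 in iP 5, against 13120.7 to 14074.3 in the other 4 rats; this array had the high Gapdh 3′ to 5′ ratio. Vip in iP amygdala was 568.5 in iP 1, the array nearest cortex, against 262.0 to 311.8 in the other 5. Sst-a in iNP hippocampus was 12995.3 in iNP 8, against 8499.8 to 9298.0. Vip in iNP accumbens was 67.6 in iNP 12, against 204.7 to 331.3. None of the 4 is an Npy value.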

How the results depend on the processing

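Npy over all regions was called in each of 21 alternatives, with differences of -0.26 to -0.21 and limma adjusted p of 0.00101 to 0.0493. The highest p came without iNP replicate 12, and leaving out 1 rat at a time gave 0.0144 to 0.0493. With the animal as a random replicate block the difference was -0.24 (adjusted p = 0.00101). Without the arrays nearest another region it was -0.26 (adjusted p = 0.0135). No other of the 6 probe sets was called over all regions. In amygdala, 1 of the 6 was called with all arrays and the random replicate block, Cck at 0.54 (adjusted p = 0.0441), where that fit takes its spread from all regions; no alternative changed another call of the 6 in the line, interaction or region F tests. Of the 24 steps between neighbouring regions, 7 changed their call in at least 1 alternative, 24 of 496 values in all and 1 of them a call lost (Sst-a, accumbens over hippocampus, without iP 4). Array weights called Npy1r in cortex over striatum (0.34, adjusted p = 0.0257), and quantile normalization called Vip in hippocampus over accumbens (0.42, adjusted p = 0.0292). Vip and Npy1r have no value with the lowest 60% left out, which removes them. Counts over all probe sets moved more: 139 calls over all regions became 97 to 202 (202 without iP replicate 1), 12 in cortex 8 to 56, 44 in striatum 37 to 59, 35 in hippocampus 25 to 47, 38 in amygdala 22 to 59 and 30 in accumbens 19 to 51. The number of rats limits what could be detected.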
